A study of Rattus norvegicus with 8 samples.

Results

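The muscle acetylcholine receptor and the genes that build the endplate around it were compared between the orbital and the global layer of extraocular muscle of the rat. Of the 10 genes of this group, 8 had a probe set that the platform's annotation assigns to that gene alone, and each of the 8 had exactly 1. They are the receptor subunits Chrna1, Chrnb1, Chrnd, Chrne and Chrng, the collagen tail Colq, and the organisers Musk and Agrn. Ache and Rapsn had none by this rule and were not analysed here. The array as a whole named 10411 genes in this way. Tissue was cut by laser from adult rat muscle, 4 captures from the orbital layer and 4 from the global layer, and its amplified RNA went to 1 array per capture. The labels used here name no strain, treatment or animal for any capture, so layer is the one difference between the groups that they state. Captures may share an animal, in which case the p-values are too small, and the spread behind them may be technical. The titles of orbital captures 3 and 4 are nearly the same, so they may be repeats of 1 capture. Their correlation over probe sets (0.939) lay within the range between captures of 1 layer (0.919 to 0.949), they were counted as separate, and averaging them as 1 left the calls of the 8 genes as they were. Fewer endplates, or fewer cells with endplates, in a capture cannot be told apart from less transcript at each endplate. The ratio of 3' to 5' Gapdh control signal, a sign of RNA integrity and amplification, was 6.33, 5.81, 12.9 and 8.64 in orbital captures 1 to 4, against 5.35, 5.64, 5.7 and 6.47 in global captures 1 to 4, and its part in the layer differences was not tested.

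The nicotinic receptor of muscle is a ring of subunits that opens when the nerve releases acetylcholine. In developing and denervated muscle it carries the gamma subunit, encoded by Chrng, and at the mature endplate the epsilon subunit, encoded by Chrne, takes its place, while alpha, beta and delta are shared by both forms. Nerve-derived agrin (Agrn) acts through Lrp4 on the kinase MuSK (Musk), which with its partner Dok7 gathers receptors under the nerve terminal, and the collagen encoded by Colq anchors acetylcholinesterase in the synaptic cleft. Extraocular muscle holds singly and multiply innervated fibres, and its multiply innervated fibres are known to keep the gamma subunit in the adult.

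The 250 bases before the annotated start of the RefSeq gene (build GRCr8) are shown for the subunits on which the results turn, because the transcription of these genes in muscle is known to depend on E-boxes bound by myogenic factors and, for the synaptic genes, on the N-box bound by the factor GABP. Capitals mark every CANNTG (E-box, the same on both strands) and every CCGGAA or its reverse complement (N-box). The windows are chr3:78877354-78877603 on the minus strand for Chrna1, chr9:95310066-95310315 on the plus strand for Chrnd, chr10:55834155-55834404 on the minus strand for Chrne and chr9:95325734-95325983 on the plus strand for Chrng, each read 5′ to 3′ in the direction of the gene.
Chrna1: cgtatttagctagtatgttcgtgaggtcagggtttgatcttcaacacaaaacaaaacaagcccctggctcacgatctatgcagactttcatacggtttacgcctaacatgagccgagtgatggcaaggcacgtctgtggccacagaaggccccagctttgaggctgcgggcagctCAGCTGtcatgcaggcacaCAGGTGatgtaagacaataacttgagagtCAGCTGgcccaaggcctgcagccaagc
Chrnd: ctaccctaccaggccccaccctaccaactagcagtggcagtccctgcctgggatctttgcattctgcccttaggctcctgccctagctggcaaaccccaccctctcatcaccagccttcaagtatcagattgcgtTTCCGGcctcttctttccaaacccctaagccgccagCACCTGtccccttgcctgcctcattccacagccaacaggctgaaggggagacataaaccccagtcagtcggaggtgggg
Chrne: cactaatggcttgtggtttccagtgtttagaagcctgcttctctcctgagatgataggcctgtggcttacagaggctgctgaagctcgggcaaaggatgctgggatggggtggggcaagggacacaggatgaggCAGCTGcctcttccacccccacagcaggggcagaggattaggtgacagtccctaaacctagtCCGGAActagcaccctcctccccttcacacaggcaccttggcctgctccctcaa
Chrng: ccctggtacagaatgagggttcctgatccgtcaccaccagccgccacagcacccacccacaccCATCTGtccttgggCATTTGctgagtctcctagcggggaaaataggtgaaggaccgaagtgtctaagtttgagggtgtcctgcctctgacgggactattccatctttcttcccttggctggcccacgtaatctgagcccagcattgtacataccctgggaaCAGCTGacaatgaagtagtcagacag

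Of the 8 genes, 7 had a promoter entry (Colq was not in the table). The E-box with the letters CAGCTG, which is also a CANNTG, stood at -75 and -27 from the start in Chrna1, at -26 in Chrng and at -116 in Chrne. It also stood at -41 in Chrnb1 and at -79 in Musk, whose windows are not shown. Chrnd had CACCTG at -79, and Agrn had no CANNTG. Such windows with CAGCTG made up 12% of 33469 RefSeq promoters, and windows with at least 2 of them 1.04%. The N-box letters stood at -54 in Chrne and at -115 in Chrnd and in none (0) of the windows of Chrna1 and Chrng, against 12.6% of all promoters. CANNTG as such was found in 65.5% of them. A match is a description of these letters and not evidence of binding.

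The alpha subunit transcript was 2.07-fold brighter on the orbital arrays, without passing the test over all probe sets. Chrna1 (probe set 1369843_at), which encodes the subunit that binds acetylcholine, had intensities of 480.6, 918.6, 686.2 and 810.2 in orbital captures 1 to 4, against 242.0, 497.4, 194.8 and 562.4 in global captures 1 to 4. The orbital captures other than capture 1 lay above every global capture, and the layers overlapped only through orbital capture 1 with global captures 2 and 4. The means were 724 ± 188 in orbital captures and 374 ± 183 in global captures (SD, n = 4 each). The log2 difference, orbital over global on log2(intensity + 1), was 1.05 ± 0.31 (SE, adjusted p = 0.0566, limma with Benjamini-Hochberg adjustment over 9520 probe sets). Among those 9520 probe sets, 7.41% passed an adjusted p of 0.05, 3.91% with the orbital layer higher and 3.5% with it lower. Leaving out global capture 2 or 4 or orbital capture 1 brought Chrna1 past the threshold (adjusted p = 0.0314, 0.022 and 0.0433), and leaving out global capture 3 gave 0.79 (adjusted p = 0.149). Over 20 alternatives the difference was between 0.79 and 1.29 and the adjusted p between 0.022 and 0.371, with 5 passing.

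Chrnd, the delta subunit (probe set 1368734_at), had a similar spread over the captures. Its intensities were 117.9, 197.2, 182.2 and 261.7 in orbital captures 1 to 4, against 86.4, 117.9, 52.1 and 151.5 in global captures 1 to 4. As with Chrna1, orbital capture 1 was the lowest of its layer and global captures 1 and 3 were the lowest of all. The means were 190 ± 59 in orbital captures and 102 ± 42.6 in global captures (SD, n = 4 each), and the log2 difference was 0.94 ± 0.3 (SE, adjusted p = 0.0855, limma). Without global capture 4 or orbital capture 1 it passed (adjusted p = 0.0379 and 0.0477), and over 20 alternatives the difference was between 0.59 and 1.29 and the adjusted p between 0.0379 and 0.497, with 2 passing.

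The beta subunit differed less between the layers and did not pass. Chrnb1 (probe set 1369091_at) had 159.7, 179.2, 165.4 and 160.5 in orbital captures 1 to 4, against 122.7, 193.1, 131.0 and 125.5 in global captures 1 to 4. The brightest capture of all was global capture 2, which stood far from the other 3 of its layer. The log2 difference was 0.24 ± 0.17 (SE, adjusted p = 0.447, limma), with means of 166 ± 9.03 in orbital captures and 143 ± 33.5 in global captures (SD, n = 4 each).

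**Figure D1:**
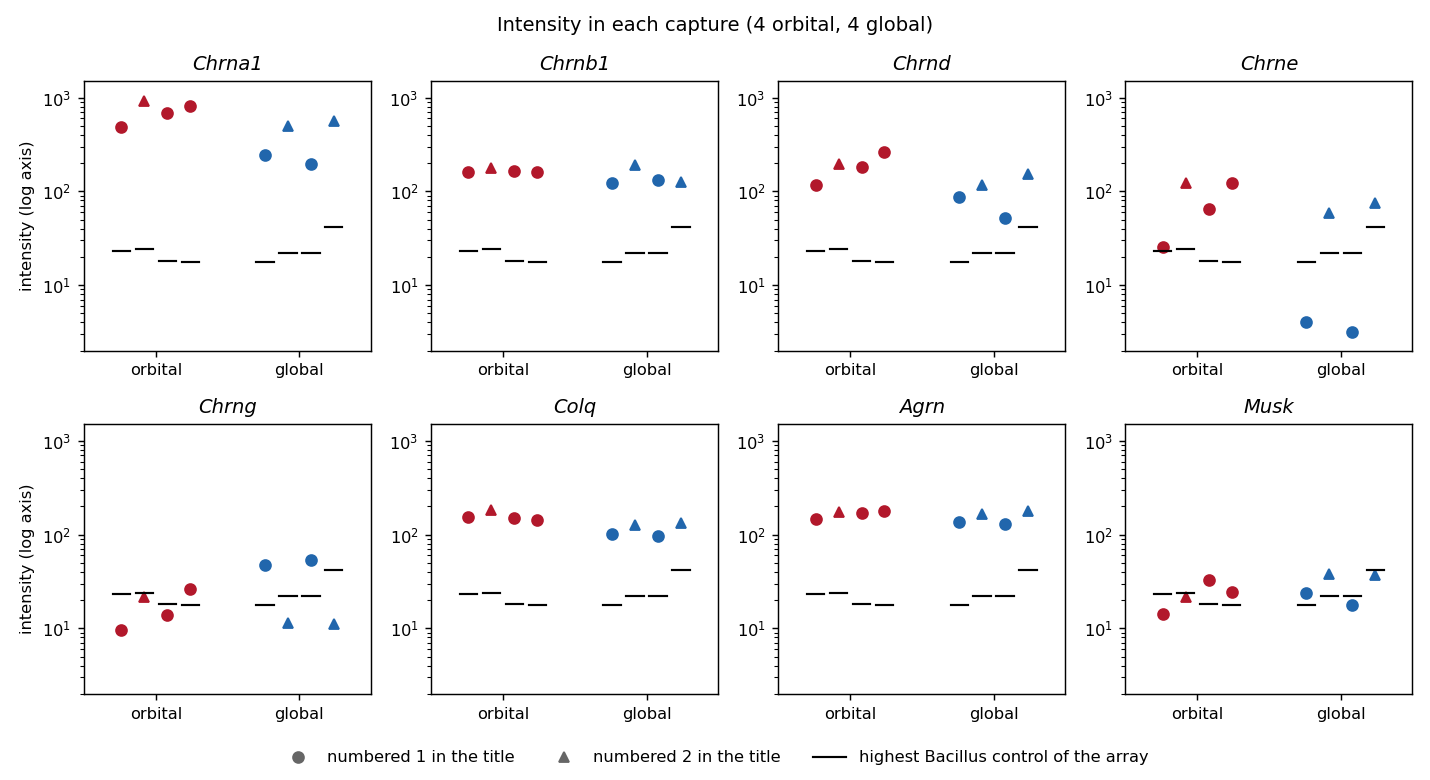
Intensity of the 8 genes (log axis) in each capture, orbital captures 1 to 4 on the left and global captures 1 to 4 on the right of each panel, with circles for captures numbered 1 in the title, triangles for those numbered 2, and a black line at the highest Bacillus control of each array. Chrna1 and Chrnd are lowest in global captures 1 and 3, where Chrne lies under the control line. Musk lies near or under the line. So does Chrng except in global captures 1 and 3, where it is at 47.9 and 53.7 against controls of 17.7 and 21.9.

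The epsilon and gamma subunits were dim. Signal near background was judged against 27 control probe sets for Bacillus transcripts, whose highest value per array was between 17.7 and 41.5. Chrne (probe set 1369137_at) had 25.4, 122.6, 64.8 and 122.6 in orbital captures 1 to 4, against 4.0, 58.7, 3.2 and 74.8 in global captures 1 to 4. All 4 orbital captures and global captures 2 and 4 were above the highest control of their array, and global captures 1 and 3 were under it. Chrng (probe set 1387727_at) had 9.6, 21.8, 13.8 and 26.2 in orbital captures 1 to 4, against 47.9, 11.4, 53.7 and 11 in global captures 1 to 4. It was above the highest control in 3 captures, namely orbital capture 4 and global captures 1 and 3, the same global captures in which Chrne was under it.

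Both subunits were below the filter on low values, which is set on the mean log2 value and corresponds to an intensity of 39.4. Their differences therefore come from a fit without that filter, in which 3.77% of 15866 probe sets passed. Chrne differed by 2.03 ± 0.91 (SE, adjusted p = 0.301, limma) with means of 83.8 ± 47.5 in orbital captures and 35.2 ± 37 in global captures (SD, n = 4 each). Chrng differed by -0.51 ± 0.58 (SE, adjusted p = 0.744, limma) with means of 17.9 ± 7.52 in orbital captures and 31 ± 23 in global captures (SD, n = 4 each). The size of both differences rests on signal near background. With pseudocounts of 16 and 64, Chrne differed by 1.16 and 0.59. Without global capture 1 or 3 it differed by 1.43 and 1.34, and without global capture 4 by 2.73, none of which passed (adjusted p = 0.505, 0.551 and 0.153).

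The balance of the fetal to the adult subunit was taken as log2(Chrng + 1) minus log2(Chrne + 1) on each array, and only its difference between captures is read, since 2 probe sets do not share a scale. It was -1.32, -2.44, -2.15 and -2.18 in orbital captures 1 to 4, against 3.29, -2.27, 3.7 and -2.66 in global captures 1 to 4. The orbital captures lay close together, and global captures 2 and 4 lay with them, while global captures 1 and 3 stood far above the others. The mean was -2.02 ± 0.49 in orbital captures and 0.52 ± 3.45 in global captures (SD, n = 4 each). The difference of -2.54 did not pass (exact permutation test over the captures, two-sided, p = 0.4, where the smallest p that this design allows is 0.0286). In 7 of 8 captures 1 of the 2 subunits was at or under the highest control, so those balances set a signal against background, and neither their sign nor their size says which subunit was more abundant. Without global capture 1 or 3 the difference was -1.62 and -1.48 (exact permutation p = 0.657 for each), and without global capture 4 it was -3.6 (exact permutation p = 0.114).

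**Figure D2:**
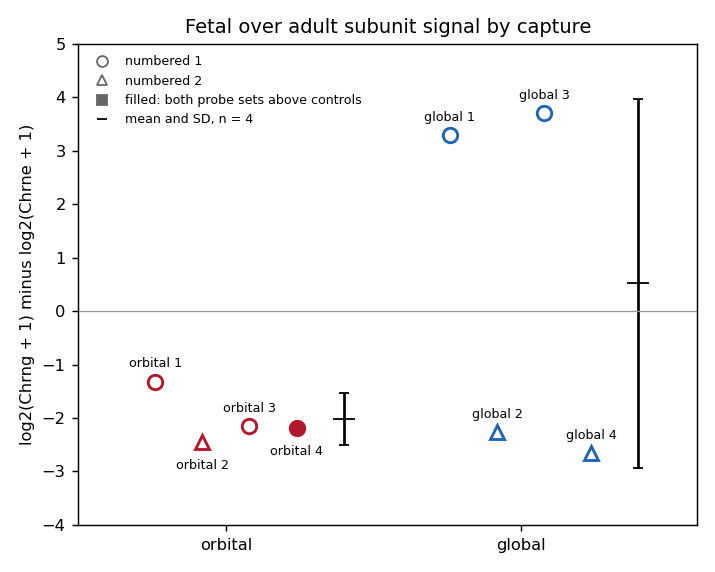
Balance of the fetal over the adult subunit, log2(Chrng + 1) minus log2(Chrne + 1), in each capture, with the mean and SD of 4 captures per layer in black. The 4 orbital captures sit between -2.44 and -1.32, and the global captures fall on both sides, with captures 1 and 3 at 3.29 and 3.7 and captures 2 and 4 at -2.27 and -2.66. A filled point has both probe sets above the highest Bacillus control of the array, which holds for orbital capture 4.

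The collagen tail of acetylcholinesterase was the gene of the 8 whose layers did not overlap. Colq (probe set 1368475_at) had 155.2, 182.2, 150.1 and 141.6 in orbital captures 1 to 4, against 102.2, 125.0, 95.9 and 133.0 in global captures 1 to 4. Its means were 157 ± 17.5 in orbital captures and 114 ± 17.8 in global captures (SD, n = 4 each). The log2 difference was 0.47 ± 0.16 (SE), and it did not pass (adjusted p = 0.103, limma). Layers without overlap were found in 14.1% of the probe sets tested, and in 7.31% all 4 orbital captures were above all 4 global ones.

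The organisers measured here did not pass. Agrn (probe set 1370307_at) had 144.7, 176.0, 170.1 and 180.2 in orbital captures 1 to 4, against 135.3, 166.2, 129.2 and 178.4 in global captures 1 to 4, and the layers overlapped (0.15 ± 0.15, SE, adjusted p = 0.645, limma). An array signal of this kind does not separate the agrin of nerve from that of muscle. Musk (probe set 1369388_at) had 14.2, 21.4, 33.1 and 24.3 in orbital captures 1 to 4, against 23.9, 38.3, 17.7 and 36.9 in global captures 1 to 4. It was at or under the highest control in 2 captures of each layer and below the filter, and it differed by -0.31 ± 0.4 (SE, adjusted p = 0.777, limma without the filter).

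In all, 5 of the 8 genes passed the filter, and 0 of these 5 reached an adjusted p of 0.05 in limma. At an unadjusted p under 0.05 there were 3 (Chrna1, Chrnd and Colq), and 2056 of the 9520 probe sets tested were under it too. All 5 differences were positive with a median of 0.47, where over all probe sets tested 5051 were positive and the median was 0.02. The layer difference was also compared between the title prefixes R2 and R3, each with 2 captures of each layer, whose meaning is not stated. Of the 9520 probe sets, 0 passed that interaction (limma), with 290 at an unadjusted p under 0.05. Chrna1 differed by 0.94 within R2 and 1.17 within R3, and Chrnd by 0.59 and 1.29.

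Within the global layer, 7 of the 8 genes were ordered by a number that the titles give after the layer, 1 for global captures 1 and 3 and 2 for global captures 2 and 4, and the labels do not say what it counts. This split was noticed in the receptor values, so no test of it is given. Fits by title number were run afterwards as alternatives, and for the 8 genes only the sizes of the differences are given from them. In 6 of the 8 genes (Chrna1, Chrnd, Chrne, Colq, Musk and Agrn) both captures numbered 1 lay below both numbered 2, and in Chrng both lay above. The receptor subunit Chrnb1 followed neither order. Over all 15866 probe sets, 19.7% lay lower in both captures numbered 1 and 14.5% lay higher. Chrna1 averaged 218 in the captures numbered 1 and 530 in those numbered 2. In the same order Chrnd averaged 69.2 and 135, Chrne 3.6 and 66.8, and Chrng 50.8 and 11.2. Between the layers, Chrna1 differed by 1.56 among captures numbered 1 (3 orbital and 2 global) and by 0.8 among those numbered 2 (1 orbital and 2 global), Chrnd by 1.39 and 0.56, and Chrne by 3.71 and 0.88. These are descriptions, since the split was noticed in these same values, and both global values of Chrne numbered 1 were under the highest control.

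Markers of other cell types were read by the same number, and no list was tested for it. Of 9 tested Schwann cell and nerve markers, 4 were lower in both global captures numbered 1 than in both numbered 2, and 0 were higher, against 19.1% and 15.7% of 7163 genes. The same order held for 4 of 9 fibroblast markers, with 1 in the opposite order, and for 3 of 3 adipocyte markers tested. It held for 1 of 8 endothelial, 2 of 8 blood and macrophage, and 1 of 6 smooth muscle and pericyte markers. In the same lists 1, 2 and 2 had the opposite order. For nerve terminal (5), photoreceptor (6) and skeletal muscle (14) markers, 0, 1 and 1 were lower and 1, 0 and 3 higher. The 4 Schwann cell and nerve markers lower in captures numbered 1 were Mbp, Egr2, Prx and Pmp22. Their log2 differences of captures numbered 1 over those numbered 2 were -2.15, -1.6, -1.51 and -1.01. The sum over the 14 markers of this list on the array was between 3110 and 6020 in the orbital captures and between 1690 and 5440 in the global captures, with 2117 and 1687 in global captures 1 and 3 and 2436 and 5438 in global captures 2 and 4. Of the 14, Gjb1 was at or under the highest control on every array. The motor neuron genes Chat and Slc18a3, which make and load acetylcholine, were above it in 1 and 0 of the 8 captures. Between the layers, 2 of the 9 tested markers were higher in the orbital layer, Cnp (0.84, adjusted p = 0.014, limma) and Nefm (1.23, adjusted p = 0.0291), and 0 were lower. Over all 7163 genes tested, the background for this and the following lists, 4.09% were higher and 3.59% lower. Cnp lost its call without orbital capture 3, and Nefm without any 1 of orbital captures 1 to 3 or global captures 1 and 4. Of the other marker lists, 1 of 6 photoreceptor markers (Guca1a, 2.05, adjusted p = 0.000101), 1 of 8 endothelial (Eng, 1.29, adjusted p = 0.0193) and 2 of 9 fibroblast markers (Fbln1, 0.7, adjusted p = 0.0412, and Fmod, 0.86, adjusted p = 0.0472) were higher in the orbital layer. Eng lost its call without orbital capture 2 or 3 or global capture 1 or 3. Fbln1 and Fmod lost theirs without any 1 of orbital captures 1 to 3 or global captures 1, 2 and 4. Quantile or cyclic loess normalization also took both fibroblast calls away. Of 6 smooth muscle and pericyte markers Myh11 was lower (-1.39, adjusted p = 0.00267), and 0 of 8 blood and macrophage and 0 of 3 adipocyte markers passed in limma. The 9 photoreceptor markers on the array summed to between 1730 and 4010 in the orbital captures and between 511 and 1800 in the global captures. Guca1a alone had 1027.9 to 1663.6 in the orbital and 208.4 to 450.3 in the global captures. It was 1448.0 of a sum of 2205.4 in orbital capture 1 and 1358.2 of 4005.1 in orbital capture 2. The 5 other photoreceptor markers tested did not pass, and the layers overlapped in each of them. The part of these tissues in the values of the receptor genes was not tested. The 14 skeletal muscle markers on the array summed to between 69300 and 102000 in the orbital captures and between 78900 and 117000 in the global captures. None (0) of them was at or under the highest control on every array. In limma, 1 of the 14 was higher in the orbital layer (Mb, 0.82, adjusted p = 0.0029). The 3 lower were Ttn (-0.7, adjusted p = 0.0098), Cacna1s (-0.78, adjusted p = 0.0203) and Ryr1 (-0.77, adjusted p = 0.0229). The other 10 did not pass, and the median was -0.39. Cacna1s lost its call without orbital capture 2 or global capture 1 or 3, and Ryr1 without orbital capture 2 or global capture 3.

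**Figure D3:**
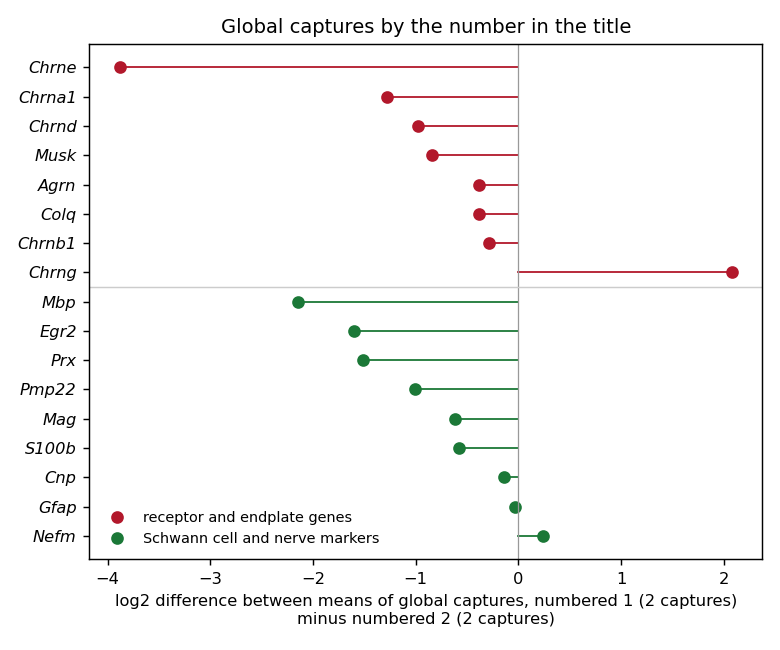
Log2 difference of the mean of the 2 global captures numbered 1 over the mean of the 2 numbered 2, for the 8 receptor and endplate genes (red) and 9 tested Schwann cell and nerve markers (green). Chrne lies at -3.88, Chrna1 at -1.28 and Chrnd at -0.98, Mbp at -2.15, and Chrng on the other side at 2.08. The 2 captures behind a mean can differ, as for Mbp with 236.2 in global capture 2 and 491.6 in global capture 4.

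The genes whose levels ran most like those of the receptor subunits over the 8 captures were sought by the root mean square distance of centred log2 values. The nearest to Chrna1 among all single-gene probe sets tested was Chrnd, at a distance of 0.222 log2 units, where the median probe set was 0.773 away. Ndrg1 (0.26) and Mpzl1 (0.269) followed. The nearest to Chrnd was a probe set of Prkar1a (0.203), the regulatory subunit of protein kinase A that is concentrated at the endplate, followed by Chrna1 (0.222) and Faim (0.248), with a median of 0.718. This probe set of Prkar1a (1386905_at) had 311.4, 401.4, 494.7 and 516.9 in orbital captures 1 to 4, against 205.9, 340.7, 138.2 and 307.6 in global captures 1 to 4. It differed by 0.85 ± 0.26 (SE, adjusted p = 0.0613, limma), its brightest probe set by 0.4 (adjusted p = 0.341) and the other one by 0.49 (adjusted p = 0.36). Mpzl1 was higher in the orbital layer (0.89 ± 0.23, SE, adjusted p = 0.0334, limma), a call lost without global capture 1 or 3 (adjusted p = 0.0916 and 0.0924) or orbital capture 2, 3 or 4 (0.0845, 0.0852 and 0.0853), or with orbital captures 3 and 4 averaged (0.0776). Ndrg1 differed by 0.6 and Faim by 0.5 without passing. Chrnb1 ran closest to Wipf1, Il33 and Elk3 (0.0723, 0.0867 and 0.093, median 0.344), none of which passed (adjusted p 0.185 to 0.305), and it shared no nearest gene with Chrna1 or Chrnd. These distances describe 8 arrays, several of which share a layer, a prefix or a title number.

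**Figure D4:**
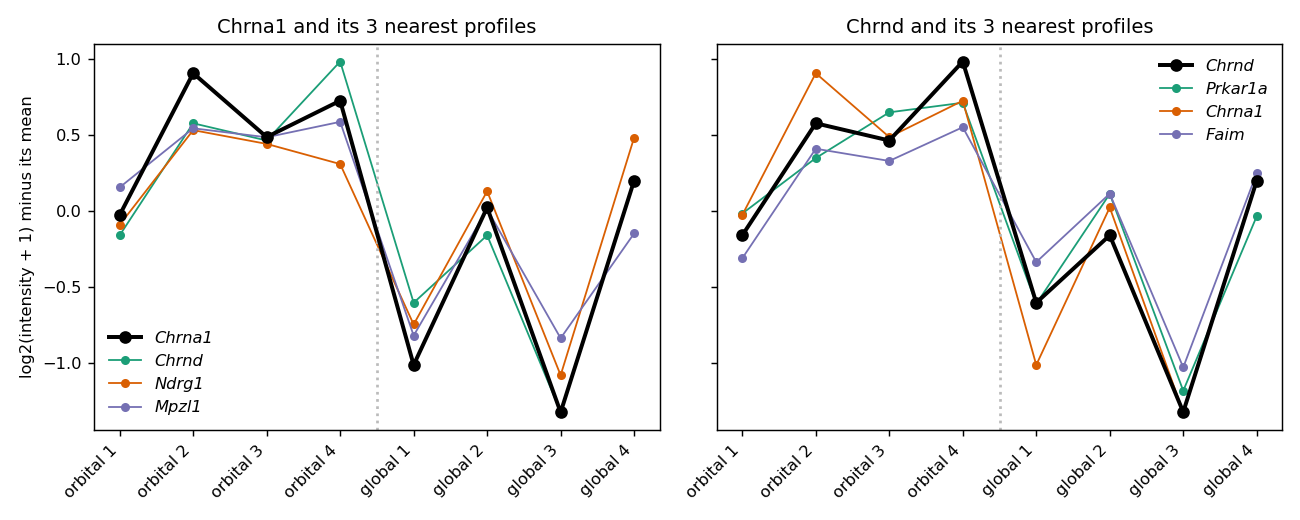
Log2(intensity + 1) minus its own mean over the 8 captures (orbital 1 to 4, then global 1 to 4) for Chrna1 and Chrnd in black and the 3 genes nearest to each in colour. The lines dip together in global captures 1 and 3, and Chrnd is the nearest gene to Chrna1 at 0.222 log2 units.

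Most of the other postsynaptic and endplate genes did not pass. Of 41 listed, 32 were on the array and 23 were tested, of which 1 rose and 2 fell in the orbital layer and 20 did not pass, with a median log2 difference of 0.23. Over all 7163 genes tested 7.68% passed, 4.09% higher and 3.59% lower, with a median of 0.02. Dtna, which encodes alpha-dystrobrevin, a protein of the dystrophin complex needed for a mature endplate, rose to 479.0, 368.2, 374.9 and 272.3 in orbital captures 1 to 4, against 193.7, 205.4, 144.2 and 223.2 in global captures 1 to 4. The layers did not overlap (0.95 ± 0.18, SE, adjusted p = 0.00653, limma), and this call held on leaving out any 1 capture. Ky, a muscle protein whose loss gives kyphoscoliosis in mice, fell by 1.49 on the log2 scale (SE 0.29, adjusted p = 0.00658, limma), with 375.8 to 1343 in the orbital and 1971 to 2602 in the global captures. Its second probe set differed by -0.72 (adjusted p = 0.0581). Prkca, protein kinase C alpha, fell by 0.77 (SE 0.19, adjusted p = 0.0263, limma), with 40.5 to 51.3 in the orbital and 71.3 to 86.6 in the global captures. That call was lost without global capture 1, 2 or 3 (adjusted p = 0.0645, 0.0664 and 0.0676) or orbital capture 2 or 3 (0.0658 and 0.0607).

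The partners of MuSK did not pass. Lrp4, the agrin receptor, had 379.4, 430.6, 311.0 and 455.1 in orbital captures 1 to 4, against 275.8, 398.6, 226.4 and 283.6 in global captures 1 to 4, and the layers overlapped (0.43 ± 0.18, SE, adjusted p = 0.185, limma). Dok7 had 172.9 to 292.3 in the orbital and 174.7 to 300.5 in the global captures (-0.17, adjusted p = 0.675). Utrn, Erbb3, Scn4a and Ncam1 were below the filter, and they were above the highest control in 5, 6, 1 and 3 of the 8 captures. Of the genes of this list below the filter, Cd24 passed in the fit without it, where 3.77% of 15866 probe sets passed. Cd24 had 16.8, 5.0, 35.4 and 24.9 in orbital captures 1 to 4, against 65.1, 56.5, 106.4 and 73.1 in global captures 1 to 4 (-2.06, adjusted p = 0.0412, limma). Orbital captures 1 and 2 were under the highest control of their arrays (23.4 and 24.1), so the size of this difference rests in part on background. Ncam1, a surface protein of denervated and immature fibres, had 23.2, 33.1, 43.9 and 39.5 in orbital captures 1 to 4, against 11.3, 18.4, 6.4 and 39.4 in global captures 1 to 4 (1.1, adjusted p = 0.316, limma without the filter).

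**Figure D5:**
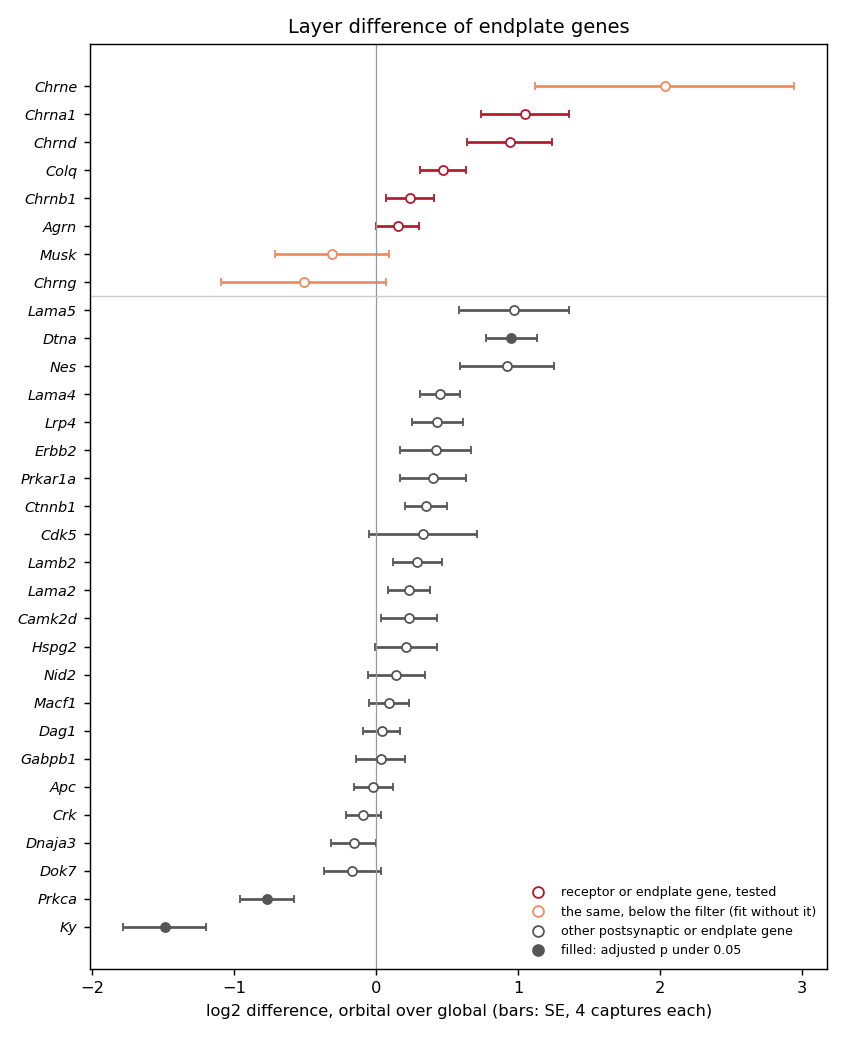
Log2 difference, orbital over global, with its SE from 4 captures each, for the 8 receptor and endplate genes above the grey line and the 23 other postsynaptic and endplate genes tested below it, filled where the adjusted p is under 0.05. Of all those drawn, Dtna (0.95), Prkca (-0.77) and Ky (-1.49) are filled, and Chrne (2.03) has the largest SE.

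Of the myogenic factors tested by name, Myf6 rose, and Myog and Myod1 did not pass. Myog, the myogenic factor that is known to drive receptor genes in denervated fibres, had 90.8 to 132.6 in the orbital and 92.6 to 115.5 in the global captures (0.03 ± 0.17, SE, adjusted p = 0.944, limma). Myod1 had 175.8 to 245.6 in the orbital and 206.0 to 596.1 in the global captures (-0.61, adjusted p = 0.209). Myf6 rose to 722.7, 676.5, 553.7 and 490.8 in orbital captures 1 to 4, against 383.2, 437.1, 344.0 and 394.5 in global captures 1 to 4 (0.64 ± 0.15, SE, adjusted p = 0.0175, limma). That call was lost without global capture 3 or orbital capture 1 or 2 (adjusted p = 0.058, 0.0573 and 0.0522). Of the 20 tested genes in the list of myogenic and denervation-responsive genes, 3 rose (Mt3, Sln and Myf6), 0 fell and 17 did not pass, with a median of 0.1, where 4.09% of all 7163 genes rose. Of 4 tested embryonic and neonatal contractile genes 3 rose (Tnnt2, Myh8 and Myh3), against the same background. The call of Myh3 (2.92, adjusted p = 0.029, limma) did not hold on leaving out any 1 of orbital captures 1 to 4 (adjusted p = 0.068, 0.0511, 0.0774 and 0.0632) or global capture 1 (0.0699) or on averaging orbital captures 3 and 4 (0.0717), which left 2 of the 4. Without orbital capture 4 the list of myogenic and denervation-responsive genes had 5 past the threshold. The fetal subunit Chrng, above the highest control in 3 captures, did not pass in any of 18 alternatives.

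Neuronal receptor subunits were mostly dim. All 11 were on the array and 2 passed the filter, Chrna7 (0.16, adjusted p = 0.721) and Chrna2 (-0.15, adjusted p = 0.791), with 0 passing in limma with or without the filter. At an unadjusted p under 0.05 without the filter there was Chrna10, at 1.8 to 14.8 in the orbital and 1.2 to 3.8 in the global captures, all under the highest control of their arrays.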

How the data were processed

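Per the labels, RNA from laser-cut tissue was amplified by T7 transcription and run on Affymetrix RAE230A arrays. The authors deposited linear intensities, 1 for each probe set on an array; the software that summarised them is not given in the sources used here. Across the 8 arrays the 2% trimmed mean varied by no more than 0.00389%, so the values had been scaled before deposit and were left as they were.

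Captures were grouped by the labelled source and numbered in accession order. After 57 of 15923 probe sets were removed as controls, the 9520 at or above the 40th percentile of mean log2 value entered limma 3.58.1 (R 4.3.3; lmFit, eBayes with trend) as log2(intensity + 1) with layer alone, adjusted by Benjamini-Hochberg over them at 0.05. The genes and lists were chosen with earlier results of these data known. Named genes were the 8, the top passing genes of a list (4 at most), a set list of endplate and myogenic genes and the 3 nearest profiles of a tested subunit. The myelin genes, Chat, Slc18a3, Chrna10 and Gjb1 were picked after their values were seen, and so were the Bacillus controls as a mark of background. GEO's platform annotation (it may be out of date) gave 1 gene for 12783 of 15866 probe sets, several for 312 and none for 2771, and each list gene was read from its brightest tested probe set.

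In data simulated for 4 against 4 captures with 200 of 9520 probe sets altered, 68% of those at a log2 difference of 1 were found and 95% of those at 2, with 10 wrong calls. Alternatives covered normalization (quantile, cyclic loess), pseudocount (16, 64), filter, eBayes settings, the title prefix, orbital captures 3 and 4 averaged as possible repeats, and each capture left out. Cd24 and other-tissue markers beyond the rule were picked after their values were seen. Fits by title number were added after seeing the data.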

Additional observations from a re-analysis of the deposited data

Results flagged for a closer look

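Chrnb1 in global capture 2 stood apart from the other global captures on the log2 scale, with a gap to its neighbour of 0.856 of the layer's range, past Dixon's critical value for 4 values at the 95% level. Of 18 groups of 4 captures looked at, 1 did so, and chance alone marks about 1 in 20. Without that capture Chrnb1 differed by 0.39 (adjusted p = 0.141, limma).

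The layer difference of Chrng went in opposite directions by the number in the title, a split noticed in these values. Among captures numbered 1 all 3 orbital captures were below both global captures (-1.67), and among those numbered 2 the orbital capture was above both global ones (0.9). The interaction was 2.58 (limma without the filter), and since it was chosen from these same values its p-value says nothing and is not given. All captures numbered 2 were under the highest Bacillus control for this gene.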

How the results depend on the processing

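The difference of Chrna1, which missed the threshold, passed with a pseudocount of 64 (0.91, adjusted p = 0.0466), and with the filter at the 60th percentile (1.05, adjusted p = 0.0429). Captures numbered 1 alone gave 1.56 for Chrna1, 1.39 for Chrnd and, without the filter, 3.71 for Chrne, but that subset holds the 2 global captures in which these genes were seen to be lowest, so its p-values say nothing and are not given. Leaving out 1 capture gave 0.79 to 1.29 for Chrna1, 0.65 to 1.16 for Chrnd and 461 to 725 for the count of 705 probe sets past the threshold. That count was 443 and 86 with captures numbered 1 or 2 alone, and 106 and 170 with prefix R2 or R3 alone, where fewer captures were used. The list of myogenic and denervation-responsive genes had 2 to 5 calls on leaving out 1 capture, against 3.

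With the title prefix as replicate block 745 probe sets passed and the calls of the 8 genes did not change. The title number as replicate block was likewise chosen from these values and supports nothing, so its p-values for the 8 genes are not given. With it 739 probe sets passed. Chrna1 differed by 1.29, Chrnd by 1.09, Colq by 0.55 and, without the filter, Chrne by 2.7. The balance of Chrng over Chrne was then -3.45. Neither label is stated to pair captures, so the blocks are alternatives only. In 4 pairs of an orbital and a global capture that share prefix and number, the deviations from the layer means correlated at 0.035 to 0.111. Of these, 1 was over 0.1. In 3 of the 4 pairs no other global capture correlated more highly with the orbital capture. Orbital captures 3 and 4, possible repeats of 1 capture, were both paired with global capture 3, and global capture 4 was in no pair. Whether captures are paired was not tested. The balance kept its sign in all 17 alternatives run for it (-3.6 to -0.78) and passed in none (0), though 3 of them (either prefix alone and the prefix block) could not have passed at any values.

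Directions turned for dim or small differences. Chrng was at 0.9 with captures numbered 2 alone, and Musk at 0.13 with captures numbered 1 alone and 0.14 with prefix R3 alone. Dok7 was at 0.35 with captures numbered 2 alone and 0.25 with prefix R2 alone. Myog was at -0.19 with captures numbered 2 alone, -0.16 with prefix R3 alone and -0.08 to 0.1 on leaving out 1 capture. The causes were not tested. Captures numbered 2 hold 1 orbital capture, whose spread is assumed to be that of the other captures. Chrne, Chrng and Musk had captures at or under the highest control, where the size of a difference depends on the pseudocount.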
